A study of Rattus norvegicus with 4 samples.

Results

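The miRNAs described here are the 3p arms, taken here as the guide strands, of 2 sister clusters, miR-23a/27a/24-2 and miR-23b/27b/24-1. They were chosen by name, as every listed row for rno-miR-23a-3p, rno-miR-23b-3p, rno-miR-27a-3p, rno-miR-27b-3p or rno-miR-24-3p, written below without the species prefix. All 5 were found among the 243 miRNAs of the deposited values. The group was proposed with results of the exercise comparison already known, in which miR-23b-3p stood out, so the differences between groups are given as a description, without a p-value for any member. Small RNA was sequenced from exosomes (Exos), vesicles that cells release into the blood, collected from rat serum by ultracentrifugation. The treatment labels put 2 libraries in the sedentary group and 2 in the exercise group, which had 4 weeks of treadmill training. The series' design text gives 20 rats per group, and the study's methods describe its quantitative results as coming from independent biological replicates. How many rats stand behind a sequencing library is given by neither, so part of the spread between these libraries may be technical. No strain, age or batch is given in the labels. Titles of the sedentary libraries open with E and those of the exercise libraries with N, which can be read against the treatment labels. Groups follow the treatment labels here, and every direction would turn if the title letters were the true ones.

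A miRNA is cut from a hairpin transcript, and 1 of its arms, the guide strand, is loaded into Argonaute, where its seed (bases 2 to 8) pairs with target mRNAs. Hairpins of a cluster lie next to each other and can be cut from the same primary transcript, although each mature product is then processed and degraded on its own. The miR-23/27/24 clusters are known for roles in endothelial cells and angiogenesis, in lipid metabolism and in blood cell development. miR-23a-3p is also used as a reference in serum and plasma, where the ratio of the red cell miRNA miR-451 to it serves as a check for lysed red cells.

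The mature sequences show which members can be told apart by their reads. They are given 5′ to 3′ with the seed in capitals, from RefSeq (GRCr8), and all 5 equal the deposited sequences when U is read for T:
miR-23a-3p: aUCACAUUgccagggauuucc
miR-23b-3p: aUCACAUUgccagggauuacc
miR-27a-3p: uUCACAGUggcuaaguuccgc
miR-27b-3p: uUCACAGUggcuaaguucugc
miR-24-3p: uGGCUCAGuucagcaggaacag
miR-23a-3p and miR-23b-3p are identical at 20 of 21 bases and differ by U19A, counted from the 5′ end with the a form first. miR-27a-3p and miR-27b-3p are identical at 20 of 21 bases as well and differ by C19U. Both differences lie outside the seed, so the a and b forms share it. The seeds of miR-23 and miR-27 differ at 1 base, U7G with miR-23a-3p first, while that of miR-24 matches the seed of miR-23 at 0 of 7 positions. No listed miRNA outside the clusters has the same seed as a member. The seed letters of miR-27 also occur at the first base of miR-128-3p, whose own seed is therefore shifted by 1 base, and those of miR-24-3p begin at base 4 of miR-484:
miR-128-3p: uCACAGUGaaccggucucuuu

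The authors kept reads of 18 to 35 nt. A read of 18 nt that starts at the first base ends before position 19 and carries no base that separates the a from the b form, and how the authors assigned such reads is not given in the sources used here. Outside the pairs, the closest listed sequence is 7 edits from miR-23a-3p and 8 or more from miR-23b-3p, miR-27a-3p, miR-27b-3p and miR-24-3p. Both clusters make the same miR-24-3p, which cannot be assigned to a locus.

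Matched to RefSeq (GRCr8), the hairpins of the a cluster lie within 389 bp of chromosome 19, minus strand, in the order Mir23a, Mir27a, Mir24-2. miR-23a-3p is at chr19:40859778-40859798 and miR-27a-3p at chr19:40859614-40859634. The b cluster spans 814 bp of chromosome 17, minus strand, inside the span of Aopep, which encodes an aminopeptidase. There miR-23b-3p is at chr17:1819405-1819425 and miR-27b-3p at chr17:1819163-1819183. The copies of miR-24-3p are at chr19:40859481-40859502 and chr17:1818672-1818693. The authors aligned to another assembly, mRatBN7.2, so these positions hold for GRCr8 alone.

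The values are RPM, the reads on a miRNA scaled to a common library total, which the authors name TPM and which take no account of length. The members are 21 or 22 nt long, so length changes comparisons between them little. In each library every non-zero value was a whole multiple of the smallest (within 0.001 reads), read here as 1 read. Library totals then came to 20780612 to 22140315 reads, of which 2.93% to 3.92% lay on listed miRNAs. The replicates of a group were not alike within sampling noise (chi-square per degree of freedom of 147 in the sedentary and 44.0 in the exercise group), so each was counted as 1 sample. Intervals below are exact Poisson or Wilson intervals at 95% and cover counting error only. The exosome markers of the study are proteins and cannot be checked in these values.

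All 5 members were detected in every library, as were 104 of the 243 listed miRNAs (42.8%). Together they made up 0.693% and 0.909% of the listed miRNA signal in the sedentary libraries and 1.39% and 1.49% in the exercise libraries. miR-23a-3p led the group in each library, at rank 19 to 25 of all listed miRNAs. By the mean of the 4 libraries the order was miR-23a-3p (183 RPM), miR-27b-3p (66.6 RPM), miR-24-3p (42.9 RPM), miR-23b-3p (38.1 RPM) and miR-27a-3p (37.0 RPM). Of the 10 pairs of members, 7 kept the same order in all 4 libraries and 3 did not. An exact sign-flip permutation test over 4 libraries cannot give a two-sided p below 0.125, which the 7 pairs reached (0.18 after Benjamini-Hochberg adjustment over the 10 pairs). In this order miR-23a-3p stood above miR-27b-3p by 1.12 to 1.78 and miR-27b-3p above miR-24-3p by 0.23 to 1.08, as differences of log2(RPM + 1) within a library. The order of miR-24-3p, miR-23b-3p and miR-27a-3p changed with the library. miR-24-3p and miR-27a-3p were both above miR-23b-3p in the 2 sedentary libraries and both below it in the 2 exercise libraries.

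**Figure D1:**
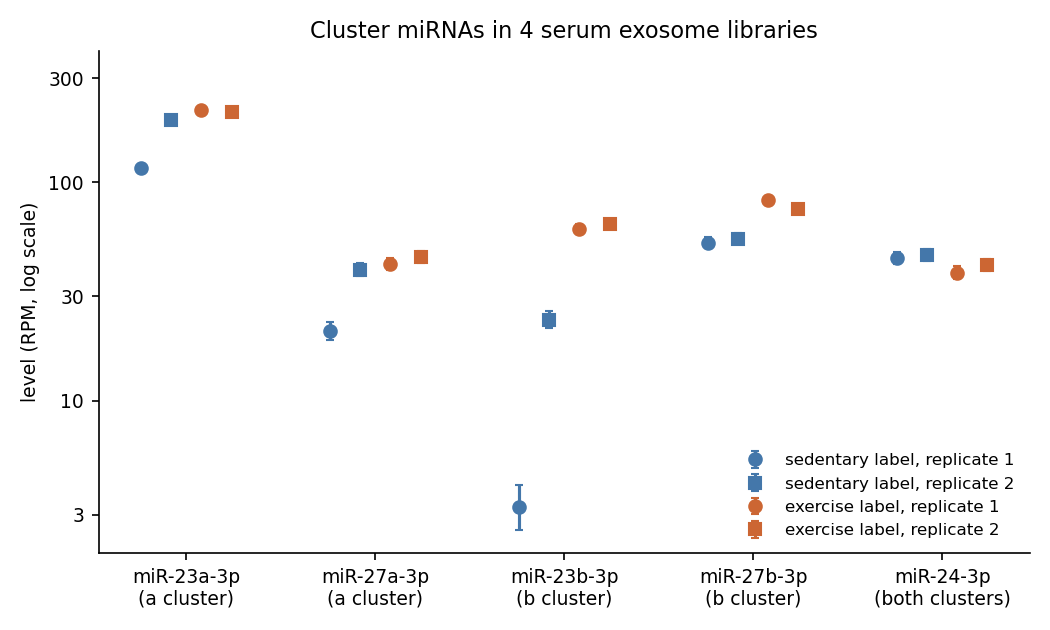
Levels of the 5 cluster miRNAs in RPM (log axis), 1 point per library, with exact 95% Poisson intervals for counting error; colour gives the treatment label and marker shape the replicate number. miR-23a-3p is the highest in each library, and the sedentary points of miR-23b-3p lie at 3.27 and 23.5 RPM against 61.0 and 64.7 RPM in the exercise libraries.

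Within the a cluster, miR-23a-3p and miR-27a-3p followed each other. miR-23a-3p had 116 and 192 RPM in the sedentary and 215 and 210 RPM in the exercise libraries. The first sedentary library was low, and the second lay close under the exercise libraries. miR-27a-3p had 20.8 and 39.7 RPM in the sedentary and 42.1 and 45.4 RPM in the exercise libraries, the same order of groups with the same low library. The difference of miR-27a-3p from miR-23a-3p was -2.42, -2.24, -2.33 and -2.18 on the log2 scale in sedentary 1 and 2 and exercise 1 and 2, a mean of -2.29 ± 0.10 (SD, n = 4 libraries). It had the smallest SD of the 10 pairs. The log2 fold changes, exercise minus sedentary, were 0.51 (standard error 0.26) for miR-23a-3p and 0.59 (standard error 0.38) for miR-27a-3p. Both rested on the first sedentary library, since without it they were 0.15 and 0.14.

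Within the b cluster, miR-23b-3p and miR-27b-3p did not keep a fixed ratio. miR-23b-3p had 3.27 RPM from 72 reads (95% interval 56.3 to 90.7 reads) and 23.5 RPM from 488 reads in the sedentary libraries. In the exercise libraries it had 61.0 RPM from 1341 reads and 64.7 RPM from 1432 reads. The groups did not overlap, and the sedentary libraries differed from each other by more than counting error. miR-27b-3p had 52.8 and 55.1 RPM in the sedentary and 82.7 and 75.7 RPM in the exercise libraries, with replicates close together in both groups. It exceeded miR-23b-3p by 3.66 and 1.20 in the sedentary and by 0.43 and 0.22 in the exercise libraries, as differences of log2(RPM + 1).

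Mean levels of miR-23b-3p were 13.4 ± 14.3 RPM (SD, n = 2) in the sedentary and 62.8 ± 2.59 RPM (SD, n = 2) in the exercise libraries, a ratio of mean RPM of 4.70. The log2 fold change, which is the difference of the group means of log2(RPM + 1) and so gives the low value of sedentary 1 more weight, was 2.64 (standard error 0.82). This change was 1.38 without sedentary replicate 1 and 3.90 without sedentary replicate 2. For miR-27b-3p the means were 54.0 ± 1.64 and 79.2 ± 4.97 RPM (SD, n = 2 each), a ratio of 1.47 and a log2 fold change of 0.54 (standard error 0.21). With 1 library left out at a time the log2 fold change of miR-27b-3p stayed between 0.48 and 0.61, so its size did not hang on a single library.

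miR-24-3p, the product that both clusters share, was the most even member. It had 44.8 and 46.3 RPM in the sedentary and 38.6 and 41.6 RPM in the exercise libraries, and its highest value was 1.20 times its lowest. For comparison, this ratio was 1.57 for miR-27b-3p, 1.86 for miR-23a-3p, 2.18 for miR-27a-3p and 19.8 for miR-23b-3p. miR-24-3p was the only member lower in the exercise libraries, with a log2 fold change of -0.18 (standard error 0.25), smaller than its standard error. Relative to miR-23a-3p it stood at -1.35 and -2.03 in the sedentary and at -2.45 and -2.31 in the exercise libraries on the log2 scale.

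The a and b paralogues were compared within each library, where scaling between libraries plays no part. For miR-23 the a form made up most of the pair. miR-23b-3p had 2.74% of the reads of the pair (Wilson interval 2.19% to 3.44%) in sedentary 1 and 10.9% (10.03% to 11.9%) in sedentary 2. Its share was 22.1% (21.1% to 23.1%) in exercise 1 and 23.5% (22.5% to 24.6%) in exercise 2. For miR-27 the b form was the larger in each library, with 71.7% and 58.1% of the pair in the sedentary and 66.2% and 62.5% in the exercise libraries. The shares of miR-23b-3p did not overlap between groups, while those of miR-27b-3p did, the exercise values lying between the sedentary ones. On the log2 scale, the difference of miR-23b-3p from miR-23a-3p was higher by 2.13 in the exercise libraries, and that of miR-27b-3p from miR-27a-3p changed by -0.044. The former was 1.23 without sedentary replicate 1, and 3.03 without sedentary replicate 2.

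**Figure D2:**
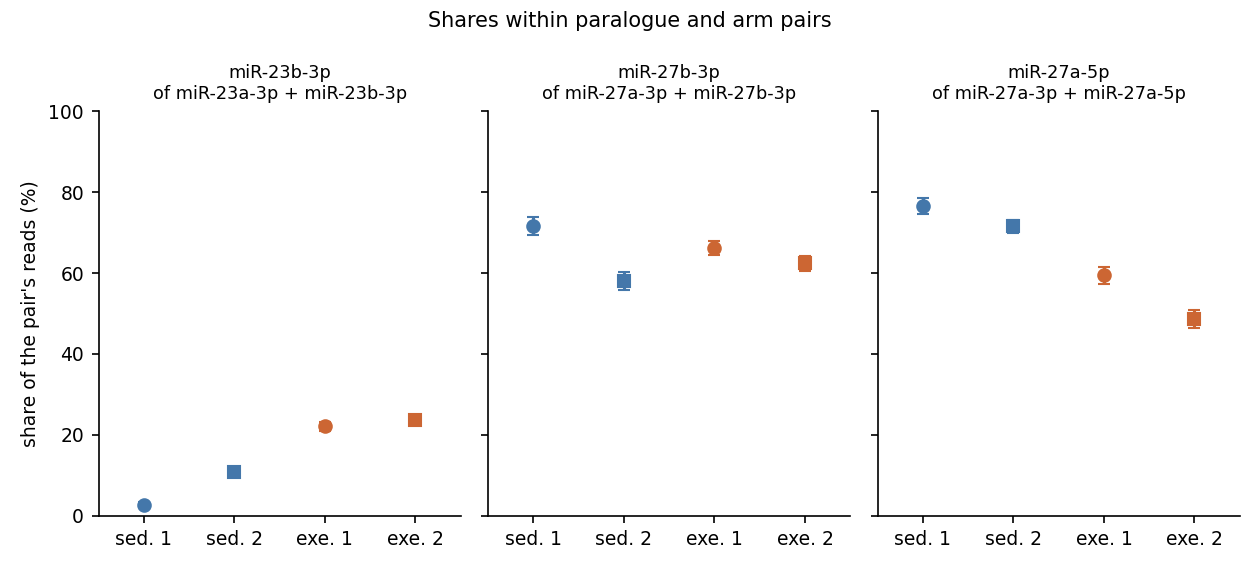
Share of reads (%) that the named miRNA takes of its pair, in sedentary (sed.) and exercise (exe.) libraries 1 and 2, with 95% Wilson intervals. The share of miR-23b-3p runs from 2.74% to 23.5% with the groups apart, that of miR-27b-3p from 58.1% to 71.7% with the groups overlapping, and that of miR-27a-5p from 76.7% to 48.8%.

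A sum over both forms does not depend on how reads were split between them. miR-23a-3p and miR-23b-3p together had 119 and 215 RPM in the sedentary and 276 and 275 RPM in the exercise libraries. The log2 fold change of this sum was 0.78, between those of its parts. miR-27a-3p and miR-27b-3p together had 73.6 and 94.8 RPM in the sedentary and 125 and 121 RPM in the exercise libraries, with a log2 fold change of 0.55. All 5 members together had 238 and 356 RPM against 440 and 437 RPM, and the groups did not overlap for any of these 3 sums.

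The difference of miR-23b-3p from its paralogue was set beside those of other near-identical pairs, a comparison chosen after the values had been seen. Among the miRNAs tested below, 15 pairs differ by 1 edit. Their absolute change between groups had a median of 0.72 on the log2 scale, with miR-23a/23b first in this order (2.13) and miR-27a/27b last (0.044). The next largest was 1.57, for miR-101a-3p and miR-101b-3p, whose less abundant form had a mean of 4.56 RPM. No limit on level was set. Some other pairs had a form near the floor, with means of 0.070 RPM for miR-378b, 0.84 RPM for miR-30e-5p and 0.87 RPM for miR-7b. There the pseudocount of 1 damps the change of that form. The first place of the miR-23 pair rested on sedentary replicate 1: without that library its change was 1.23 and came at place 7 of 15, while it stayed first without any other library. The miR-27 pair took places 8 to 14 with 1 library left out, with 0.38 at place 12 without sedentary replicate 1 and -0.46 at place 8 without sedentary replicate 2. Pairs that share a miRNA are not independent, and the order is a description.

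**Figure D3:**
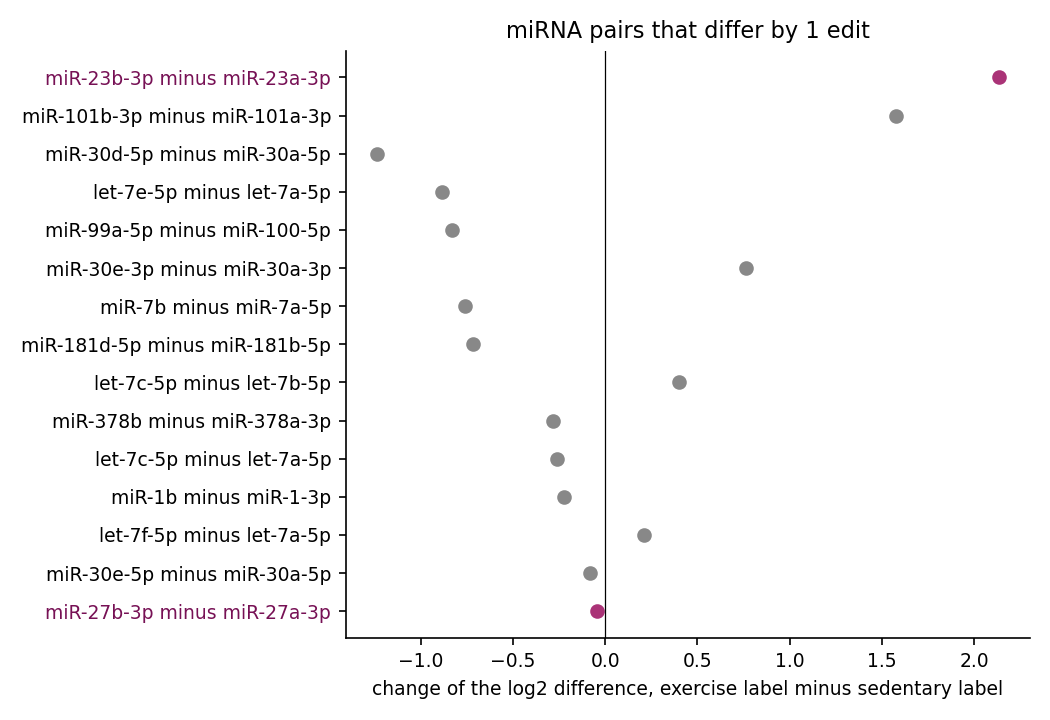
Change between groups of the log2(RPM + 1) difference within each of the 15 pairs that differ by 1 edit, exercise label minus sedentary label, ordered by absolute size. The miR-23 pair (coloured) stands at 2.13 and the miR-27 pair (coloured) at -0.044.

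Across all miRNAs, 178 were above 0 in at least 2 libraries and were fitted with limma on log2(RPM + 1). The pseudocount of 1 makes fold changes of low miRNAs smaller. With the study's thresholds, a log2 fold change beyond 1 in either direction and an adjusted p below 0.05, 7.87% of these miRNAs and 0 of the 5 members were called by limma. With an unadjusted p in the same rule 1 member passed, miR-23b-3p, beside 21.9% of all tested, and limma voom on the derived reads called 0 members and 6.74% of all. miR-23b-3p was called with a filter at a mean of 10 RPM, where 22.0% of the 82 miRNAs tested were called, and with a block on the replicate number, where 10.1% of the 178 were. The groups did not overlap for any of the 5 members, against 52.2% of all tested miRNAs, and 4 of the 5 were higher in the exercise libraries without overlap, against 32.0% of all tested. The remaining member, miR-24-3p, was lower without overlap, as were 20.2% of all tested, and with the groups exchanged these 2 shares would change places. With 2 libraries against 2, the smallest two-sided p of an exact permutation test for 1 miRNA is 0.33. Of the members, 4 had a log2 fold change above 0, against 59.6% of all tested, and 1 had one below 0, against 40.4%, which would likewise change places. The median log2 fold change was 0.54 over the members and 0.21 over all 178. Since the members were proposed from this comparison, nothing is read from these counts. By the treatment labels, miR-23b-3p held the third place from the top among the fold changes of all 178, miR-27a-3p, miR-27b-3p and miR-23a-3p places 66, 68 and 73, and miR-24-3p place 115. With the groups exchanged these places would count from the bottom. In such bulk values, fewer cells or vesicles of a kind and less miRNA in each cannot be told apart.

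**Figure D4:**
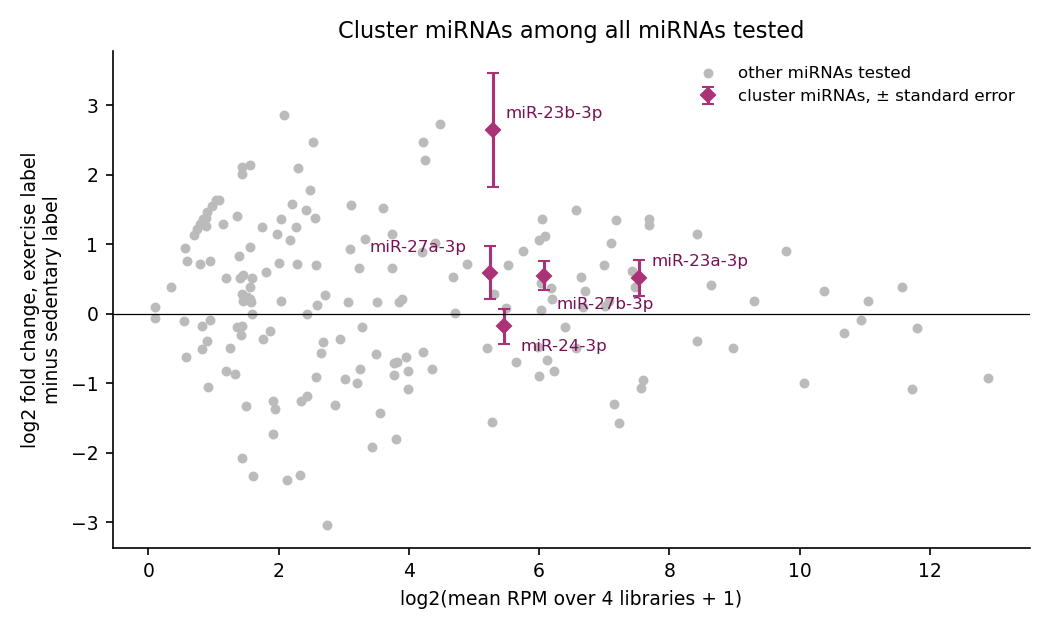
Log2 fold change, exercise label minus sedentary label, against log2 of the mean RPM + 1 for the 178 miRNAs tested (grey) and the 5 cluster miRNAs (coloured, ± standard error from limma). miR-23b-3p lies at 2.64, miR-23a-3p, miR-27a-3p and miR-27b-3p between 0.51 and 0.59, and miR-24-3p at -0.18.

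The exercise replicates agreed more closely than the sedentary ones. The absolute log2 difference between replicates had a median of 0.11 over the 5 members in the exercise and of 0.72 in the sedentary libraries. Over all miRNAs tested these medians were 0.37 and 0.54. All 5 members were higher in sedentary 2 than in sedentary 1, as were 103 of the 178 tested, by 0.061 for miR-27b-3p and 0.047 for miR-24-3p but by 0.72 for miR-23a-3p, 0.90 for miR-27a-3p and 2.52 for miR-23b-3p. Of the 82 miRNAs with a mean of at least 10 RPM, 3 (miR-23b-3p included) had a gap of that size or more between the sedentary replicates.

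The other arms of the 6 hairpins were less complete. miR-27a-5p, miR-27b-5p and miR-24-2-5p had rows, and miR-23a-5p, miR-23b-5p and miR-24-1-5p were not analysed here. miR-27a-5p comes from the same hairpin as miR-27a-3p, shown with both arms in capitals (RefSeq, GRCr8, chr19:40859603-40859689, minus strand):
Mir27a: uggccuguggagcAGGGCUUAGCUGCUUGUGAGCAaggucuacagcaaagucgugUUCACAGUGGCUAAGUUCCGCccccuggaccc
miR-27a-5p had 68.4 and 100 RPM in the sedentary and 61.7 and 43.2 RPM in the exercise libraries, so the arms of this hairpin differed between groups in opposite directions. Its log2 fold change was -0.67 (standard error 0.30), against 0.59 for miR-27a-3p. The 5p arm held 76.7% (Wilson interval 74.7% to 78.5%) and 71.6% (70.0% to 73.2%) of the reads of both arms in the sedentary libraries. It held 59.4% (57.4% to 61.4%) and 48.8% (46.5% to 51.0%) in the exercise libraries. The shares did not overlap between groups, and in exercise 2 the arms were about equal. miR-27a-3p, taken here as a guide strand, was thus the less abundant arm in both sedentary libraries and in exercise 1. The change of the log2 difference between the arms was -1.26, which took place 11 by absolute size among the 25 hairpin names with both arms tested (median 1.16) and place 2 among the 5 with a mean of at least 10 RPM in both arms, a comparison chosen after the values had been seen.

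miR-24-2-5p, which tells the a cluster copy of miR-24 from the b cluster copy, had 0 reads in sedentary 1 and 143 reads in sedentary 2 (6.88 RPM). It had 122 and 159 reads in the exercise libraries (5.55 and 7.18 RPM), and the groups overlapped. The exact 95% Poisson interval of the 0 reads in sedentary 1 ends at 3.69 reads, or 0.168 RPM, which covers counting error only. miR-27b-5p had 91 reads (4.38 RPM) in sedentary 2 and 0 reads in the other 3 libraries, and was not tested. miR-128-3p, with the shifted miR-27 seed, had 39.6 and 28.8 RPM in the sedentary and 49.0 and 62.8 RPM in the exercise libraries, a log2 fold change of 0.70 (standard error 0.30). miR-484, which holds the seed letters of miR-24-3p, had 8.95 and 1.78 RPM in the sedentary and 5.10 and 4.34 RPM in the exercise libraries, which lay between the sedentary ones.

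Likeness of pattern was measured as the Euclidean distance between log2(RPM + 1) values, each centred on its mean over the 4 libraries, to 77 other miRNAs with a mean of at least 10 RPM. With 4 points this is a description. For miR-23a-3p the closest of all was its cluster mate miR-27a-3p (0.18), and the closest outside the clusters were miR-103-3p (0.20), miR-106b-3p (0.31) and miR-148a-3p (0.33). For miR-27a-3p they were miR-103-3p (0.21), miR-106b-3p (0.42) and miR-215 (0.42). The nearest to miR-23b-3p, miR-98-5p, lay at 1.75, followed by miR-152-3p (1.81) and miR-150-5p (1.87). The centred values were not scaled to their range, so a miRNA with a wide range lies far from most others. The median distance of miR-23b-3p to the 77 was 3.03, against 0.90 to 1.11 for the other members. miR-27b-3p lay nearest to miR-1-3p (0.14), miR-148a-3p (0.15) and miR-146b-5p (0.16), and its distance to miR-23b-3p was 2.73. miR-24-3p lay nearest to miR-143-3p (0.14), let-7c-5p (0.27) and miR-126a-3p (0.31).

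Marker miRNAs of cells that release vesicles or RNA into serum were summed beside these values. miR-451-5p had 14.7 and 148 RPM in the sedentary and 54.0 and 70.4 RPM in the exercise libraries. Its ratio to miR-23a-3p was 0.127 and 0.772 in the sedentary and 0.251 and 0.335 in the exercise libraries, so the exercise libraries lay between the sedentary ones. The library with the lowest miR-23a-3p also had the lowest miR-451-5p. The red cell list (6 of 6 listed, miR-486 the most abundant) summed to 8848 and 11377 RPM in the sedentary and to 5829 and 4854 RPM in the exercise libraries, with miR-144-3p, miR-144-5p and miR-16-5p at 0 in at least 1 library. The white cell list (6 of 6) summed to 84.0 and 107 RPM against 191 and 200 RPM, with miR-142-3p, miR-142-5p, miR-155-5p and miR-223-3p at 0 in at least 1 library. The platelet list (5 of 5) summed to 113 and 111 RPM against 178 and 147 RPM, with miR-223-3p, miR-199a-3p and miR-221-3p at 0 in at least 1. The vascular list (5 of 6) summed to 1832 and 1909 RPM against 1573 and 1536 RPM, with miR-126a-5p and miR-221-3p at 0 in at least 1. The liver list (4 of 4, miR-194-5p at 0 in at least 1) summed to 1535 and 1689 RPM against 933 and 931 RPM, and the muscle list (4 of 4, miR-133a-3p and miR-133b-3p at 0 in at least 1) to 371 and 428 RPM against 497 and 449 RPM. Of the list members tested, limma called 1 of 6 white cell miRNAs higher (miR-150-5p), 1 of 3 liver miRNAs lower (miR-122-5p) and 0 in the red cell, platelet, vascular and muscle lists, against 5.06% of all 178 called higher and 2.81% called lower. Counts of 1 in lists this short do not set a list apart from all miRNAs, and both calls were lost with any 1 library left out. Summed levels of the white cell, platelet and muscle lists were thus higher and those of the red cell, vascular and liver lists lower in both exercise libraries. Sums follow the most abundant miRNA of a list, and the median log2 fold change of the tested members had the opposite sign for muscle (-0.091) and liver (0.089). The other medians were 1.16 for white cell, 0.17 for platelet, -0.052 for red cell and -0.28 for vascular. Red cell members went both ways, with 2.47 for miR-16-5p and 0.37 for miR-451-5p against -0.93 for miR-486 and -0.48 for miR-92a-3p. So did vascular members, with 2.11 for miR-126a-5p and 0.049 for miR-126a-3p against -0.28 for miR-143-3p, -0.37 for miR-221-3p and -0.70 for miR-145-5p. Some lists share miRNAs, such as miR-223-3p and miR-221-3p. The part of these shifts in the values of miR-23a-3p, miR-23b-3p, miR-27a-3p and miR-27b-3p was not tested.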

How the data were processed

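Small RNA of serum Exos was measured in 4 libraries, grouped by treatment label. The authors trimmed reads with cutadapt, kept 18 to 35 nt, aligned them to mRatBN7.2 with Bowtie (Bowtie2 in their methods), counted them with featureCounts on miRBase and deposited values that they call TPM. The authors thus deposited RPM, since 1 read is worth the same for miRNAs of every length. No further columns of sample values were present (0).

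Groups were compared on log2(RPM + 1) with the package limma (version 3.58.1, R version 4.3.3), with a variance prior that follows mean level and Benjamini-Hochberg adjustment, for the 178 miRNAs above 0 in at least 2 libraries. Other tables and figures used Python 3.11.15. The study's DESeq2, which takes counts, was not run on the deposited values, which are normalized. Whole reads derived from them went into limma voom as an alternative, and DESeq2 was not run on those reads either. Named miRNAs are the members, miRNAs that share their seed letters, the other arms, the 3 closest in pattern to each member, miR-451-5p and the marker lists. The members and lists were chosen with earlier results of these data known. Alternatives changed the pseudocount, filter, scaling, variance prior, block, model and libraries. Hairpins and mature sequences were matched to RefSeq by name, for 5 of 5 members. The replicate numbers did not pair the libraries.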

Additional observations from a re-analysis of the deposited data

How the results depend on the processing

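The cluster miRNAs kept the sign of their log2 fold change under all 13 alternatives computed for each. Without replicates 1 or 2 of either group in turn, the log2 fold change lay between 0.15 and 0.87 for miR-23a-3p, 1.38 and 3.90 for miR-23b-3p, 0.14 and 1.04 for miR-27a-3p, 0.48 and 0.61 for miR-27b-3p and -0.23 and -0.13 for miR-24-3p. The lowest values of miR-23a-3p, miR-23b-3p and miR-27a-3p came without sedentary replicate 1. Under the other settings, the values were 0.41 to 0.52, 1.79 to 2.89, 0.46 to 0.62, 0.44 to 0.55 and -0.28 to -0.15, in the same order. The difference between the miR-23 paralogues changed between groups by 1.23 to 3.03 with 1 library left out, 2.31 with a pseudocount of 0.1 and 1.31 with a pseudocount of 10.

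Of the members, 1 (miR-23b-3p) was called with a mean of at least 10 RPM, which tests 82 miRNAs and calls 22.0% of them, 1 with the replicate block and 1 with the crossed replicate block, against 0 otherwise and 0 to 0 with 1 library left out. Over all miRNAs, 14 were called, 3 without the filter on low values (243 tested), 0 with a single variance prior (44 at an unadjusted p) and 0 to 11 with 1 library left out. None of the 14 was called again with any 1 library left out (0 shared). Without sedentary replicate 1 or 2 there were 0 calls by limma (44 and 46 at an unadjusted p), and without exercise replicate 1 or 2 there were 11 and 10, each of them higher. In these fits the lone library of a group is assumed to vary like the other group. The cause was not tested, apart from the number tested. Median-of-ratios scaling also gave 14 calls, 10 of them shared, and turned the split, with 5 higher in place of 9. The replicate block gave 18 calls. Deviations of same-numbered libraries had a correlation of -0.15, and the crossed replicate block, chosen after seeing the data, also gave 18. With 72 reads, miR-23b-3p in sedentary 1 was the member value with the widest relative counting interval.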
